A study of Rattus norvegicus with 24 samples.

Results

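The cell cycle and DNA replication genes described here are 50 symbols of the rat gene tables, of 36856 gene rows in all, taken as a fixed list and split by role into 27 mitotic genes, 10 S-phase genes (the Mcm helicase subunits, Pcna, both ribonucleotide reductase subunits and Tyms), 10 genes of the G1/S step and of replication licensing, and 3 chromatin and other genes. All 50 had a row in each of the 3 count tables, and all 50 passed the filter on low counts in each table. The libraries came from Sprague-Dawley rats of 120 to 200 g, labelled female, of no stated genetic modification, kept for 7 days on a synthetic diet. In the aldosterone experiment, 4 rats received aldosterone from an osmotic minipump at 12 µg per day on a diet of 0.4% Na, and 4 control rats had the same diet without aldosterone; the labels do not say whether the controls carried a pump. In the low-salt experiment, 4 rats ate 0.01 to 0.02% Na and 4 rats ate the diet of 0.4% Na, which the sample titles call high salt. The papilla of the kidney, the tip of its inner medulla, was taken in both experiments, and a piece of heart ventricle was taken in the low-salt experiment; whether kidney and heart pieces came from the same rats is not stated. Each library is from 1 kidney or 1 piece of ventricle and is called a rat below, although the labels do not say outright that each came from a different animal. Within each group replicates 1 and 2 are labelled batch 1 and replicates 3 and 4 batch 2.

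A dividing cell first commits to division in G1, when cyclin D and cyclin E kinases release E2F transcription factors from retinoblastoma proteins. E2F then switches on the genes that license origins, load the Mcm helicase and make nucleotides for S phase. Later in the cycle the genes of mitosis are switched on by B-Myb and FoxM1, and a repressor complex called DREAM keeps both sets silent in resting cells. Most epithelial cells of the adult kidney papilla and nearly all cardiac muscle cells are at rest, so that in whole pieces of these tissues mitotic transcripts come from few cells. S-phase genes such as Pcna and Rrm1 also serve DNA repair and nucleotide supply outside the cycle, whereas mitotic genes such as Cdc20 are nearly silent there. In bulk tissue, fewer dividing cells and less transcript per cell cannot be told apart.

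The sequences below are the promoters of the mitotic and S-phase genes with the smallest p under aldosterone that had an entry in the RefSeq promoter table (build GRCr8). They are shown because the 2 sets differ in the letters that the known cell cycle regulators read. Each runs 5′ to 3′ along the gene's strand from 250 bases before to 50 bases after the start. Capitals mark the CHR word TTTGAA (the cell cycle genes homology region, bound by DREAM and B-Myb), the E2F words TTTGGCGC, TTTCCCGC, TTTGCCGC and TTTCGCGC, and the word CCAAT (bound by NF-Y), searched on both strands, so that ATTGG in capitals is CCAAT on the other strand.
Nusap1 (chr3:127057045-127057344, plus strand): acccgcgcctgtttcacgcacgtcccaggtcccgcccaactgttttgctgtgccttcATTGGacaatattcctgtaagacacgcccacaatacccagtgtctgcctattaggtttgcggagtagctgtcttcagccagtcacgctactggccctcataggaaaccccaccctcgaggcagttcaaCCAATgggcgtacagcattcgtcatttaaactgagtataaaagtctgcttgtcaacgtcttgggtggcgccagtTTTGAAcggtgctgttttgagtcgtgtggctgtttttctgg
Cdk1 (chr20:19265043-19265342, plus strand): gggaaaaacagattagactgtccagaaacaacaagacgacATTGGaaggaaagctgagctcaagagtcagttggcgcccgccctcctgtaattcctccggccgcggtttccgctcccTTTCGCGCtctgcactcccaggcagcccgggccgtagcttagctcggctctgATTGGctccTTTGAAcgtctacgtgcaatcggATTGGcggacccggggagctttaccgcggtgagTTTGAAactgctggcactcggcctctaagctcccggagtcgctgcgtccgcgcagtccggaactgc
Cdc20 (chr5:137255750-137256049, minus strand): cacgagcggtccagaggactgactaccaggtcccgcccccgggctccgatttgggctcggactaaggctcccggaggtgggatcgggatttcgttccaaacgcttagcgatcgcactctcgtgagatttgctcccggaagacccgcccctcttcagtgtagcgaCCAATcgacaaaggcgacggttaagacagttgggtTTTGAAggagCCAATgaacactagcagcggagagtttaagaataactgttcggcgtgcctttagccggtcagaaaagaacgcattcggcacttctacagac
Bub1 (chr3:135504872-135505171, minus strand): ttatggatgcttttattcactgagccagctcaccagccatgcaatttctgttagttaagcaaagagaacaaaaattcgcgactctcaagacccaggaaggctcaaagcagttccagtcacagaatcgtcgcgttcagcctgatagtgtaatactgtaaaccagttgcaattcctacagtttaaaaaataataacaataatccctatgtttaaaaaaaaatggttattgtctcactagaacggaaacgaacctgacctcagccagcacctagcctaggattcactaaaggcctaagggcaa
Rrm1 (chr1:166235654-166235953, plus strand): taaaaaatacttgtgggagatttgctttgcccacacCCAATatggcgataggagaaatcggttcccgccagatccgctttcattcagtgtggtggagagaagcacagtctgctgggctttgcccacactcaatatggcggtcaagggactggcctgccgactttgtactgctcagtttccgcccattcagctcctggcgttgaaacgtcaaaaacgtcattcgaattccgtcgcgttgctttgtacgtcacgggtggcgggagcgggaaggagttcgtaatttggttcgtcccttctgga
Tyms (chr9:120776034-120776333, minus strand): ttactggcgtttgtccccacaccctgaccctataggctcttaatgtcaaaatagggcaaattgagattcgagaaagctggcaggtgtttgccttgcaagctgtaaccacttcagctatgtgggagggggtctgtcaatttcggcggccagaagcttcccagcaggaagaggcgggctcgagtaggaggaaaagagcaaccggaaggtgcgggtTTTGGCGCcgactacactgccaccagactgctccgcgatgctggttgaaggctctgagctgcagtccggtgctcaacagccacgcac

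The CHR word stood in 14 of the 22 mitotic genes with an entry (63.6%) and in 1 of 8 S-phase genes (12.5%), against 18.3% of all 33469 promoter windows. The E2F words had the opposite distribution, in 1 of 22 mitotic genes (4.55%), 6 of 8 S-phase genes (75.0%) and 2.14% of all windows. CCAAT was found in 17 of 22 mitotic genes (77.3%) and 6 of 8 S-phase genes (75.0%), against 37.5% of all windows. CHR and CCAAT occurred together in 13 of 22 mitotic genes (59.1%) and in 7.41% of all windows. Cdc20 carries CHR at position -51 between CCAAT words at -86 and -41, counted from the start of the gene by the first base of the word. Cdk1 carries CHR at -72 and -16 and was the single mitotic gene with an E2F word, at -133. In Nusap1 the CHR lies after the start, at position 10. Tyms has an E2F word at -37, Rrm1 has CCAAT alone, and none of the words is in the window of Bub1. Of the G1/S and licensing genes, 0 of 6 had CHR and 3 of 6 (50.0%) an E2F word. Ccna2, Aurkb, Tpx2, Ube2c, Foxm1, Mcm4, Rrm2, Cdc6, E2f1, Ccne2 and Ccnd1 are named only. A match of letters is a description and not a site of binding.

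Estimated counts summed to between 24299000 and 38318000 per library. Levels below are CPM, counts scaled to a common library size, after TMM scaling, a factor that sets the bulk of genes equal between libraries, and they compare libraries and not genes, since CPM grows with transcript length. Inner medulla markers were abundant in every kidney library (13680 to 24610 CPM summed) and ventricle markers in every heart library (66080 to 84340 CPM). Every kidney library also held markers listed for thick ascending limb (1065 to 5041 CPM) and proximal tubule (932.5 to 2229 CPM). The proximal tubule list is not specific to kidney, with 293.7 to 439.7 CPM in high-salt and 353.8 to 457.7 CPM in low-salt hearts. Whether the kidney pieces held tissue from outside the papilla was not tested. The sex label did not hold in the low-salt experiment. In 8 aldosterone and control libraries Xist, the RNA of the inactive X chromosome, had 239 to 454 CPM; in 16 low- and high-salt libraries it had 0 to 0.0912 CPM, while 4 Y-linked genes summed to 144 to 275 CPM. The 2 experiments thus differ in the sex that the RNA shows, and each group holds libraries of 1 kind. Reads of Ube2c, Rrm2 and Hmgb2 may be shared with Ube2cl1, Rrm2l1, Hmgb2l1 and Hmgb2l2, so the levels of Ube2c, Rrm2 and Hmgb2 are uncertain. These possible copies were found by name, and their sequences were not compared.

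The first comparison asks how the renal papilla responds to infused aldosterone, the steroid that Na restriction raises. All 50 cell cycle genes had higher mean levels in aldosterone rats than in control rats, in both batches, and mitotic genes differed more than S-phase genes. The median difference was 1.65 on the log2 scale for the 27 mitotic genes (a fold of 3.14, range 0.58 to 2.01), 1.30 for the G1/S and licensing genes, 0.80 for the 3 chromatin and other genes and 0.68 for the 10 S-phase genes (a fold of 1.60, range 0.23 to 1.21), against 0.0041 for all genes tested. None of the 50 passed edgeR's quasi-likelihood test after Benjamini-Hochberg adjustment over all 17671 genes tested (adjusted p 0.182 to 0.495), and neither did any other gene (percent called 0). At an unadjusted p under 0.05 all 50 were higher, against 6.2% of all genes tested, and DESeq2's Wald test called 44 of the 50 higher, against 1.69%. The 4 aldosterone libraries lay wholly above the 4 control libraries for 44 of the 50 genes, against 3.15% of all genes. A log2 fold change of at least 1 was reached by 23 of 27 mitotic, 6 of 10 G1/S and licensing and 4 of 10 S-phase genes, 33 in all, against 1.7% of all genes. The 6 genes whose groups overlapped were Aurka, Mcm3, Mcm4, Pcna, Cdc6 and Hmgb2.

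**Figure D1:**
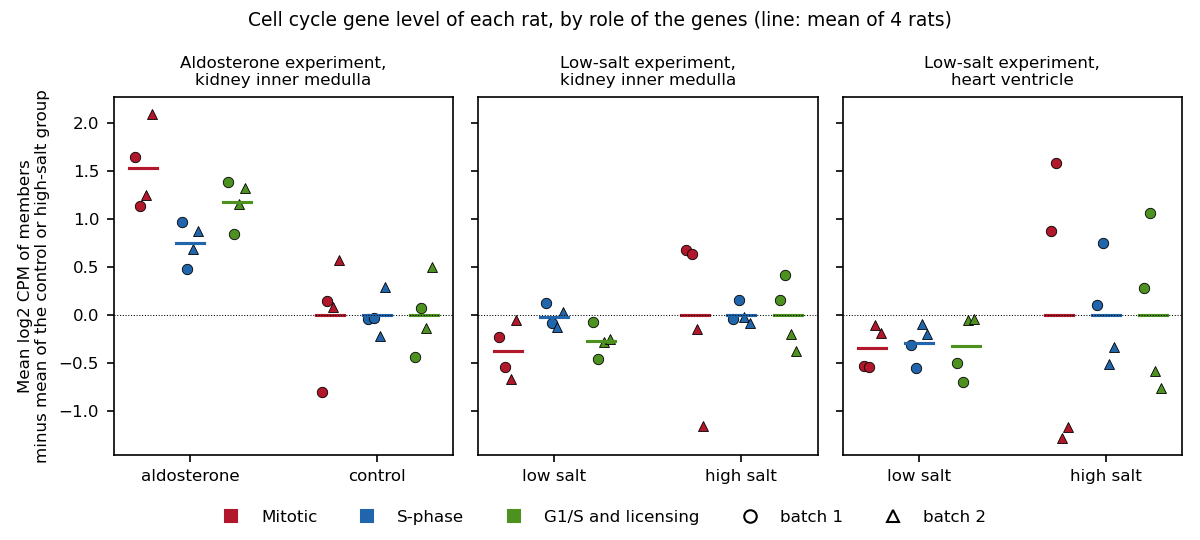
Mean log2 CPM of the mitotic, S-phase and G1/S and licensing genes in each of the 24 libraries, as the difference from the mean of the control or high-salt group of the same tissue; each point is a rat, circles are batch 1 and triangles batch 2, and lines are group means. The 4 aldosterone rats have mitotic values of 1.14 to 2.10 and the 4 control rats of -0.81 to 0.57, and the heart high-salt rats split by batch.

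The 4 mitotic genes of smallest p were Nusap1, Cdk1, Cdc20 and Bub1. Nusap1, which bundles spindle microtubules, had 13.7, 12.4, 15.5 and 23.4 CPM in aldosterone rats, against 3.38, 4.92, 6.79 and 8.73 CPM in control rats, a log2 fold change of 1.49 ± 0.20 (SE; n = 4 rats a group here and below). Cdk1, the kinase that drives entry into mitosis, had 15.7, 10.8, 14.7 and 19.9 CPM in aldosterone rats, against 4.04, 5.37, 4.31 and 6.63 CPM in control rats, a log2 fold change of 1.58 ± 0.21. Every aldosterone rat was above every control rat for both genes. Cdc20, the activator of the anaphase-promoting complex, had 16.8, 12.3, 12.6 and 19.8 CPM in aldosterone rats, against 3.28, 4.36, 5.32 and 7.08 CPM in control rats (1.65 ± 0.23). Bub1, a kinase of the spindle checkpoint, had 8.61, 5.57, 6.72 and 10.1 CPM in aldosterone rats, against 1.71, 2.46, 2.51 and 3.61 CPM in control rats (1.61 ± 0.25). Their unadjusted p-values were 5.54e-05 for Nusap1, 6.22e-05 for Cdk1, 7.58e-05 for Cdc20 and 0.000191 for Bub1, with an adjusted p of 0.182 for each.

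The general proliferation markers kept the groups apart too. Mki67, a nuclear protein of cycling cells, had 37.2, 30.6, 32.5 and 51.6 CPM in aldosterone rats, against 4.77, 11.5, 12.1 and 18.8 CPM in control rats (1.75 ± 0.31). Top2a, the topoisomerase that untangles sister chromatids, had 40.8, 29.2, 32.4 and 51.4 CPM in aldosterone rats, against 4.33, 11.8, 12.2 and 18.3 CPM in control rats (1.78 ± 0.33). Among aldosterone rats replicate 4 was highest for both genes, and among control rats replicate 4 was highest and replicate 1 lowest. Ccnb2, a B-type cyclin that partners Cdk1, had 12.5, 8.74, 9.17 and 20.1 CPM in aldosterone rats, against 1.27, 3.57, 4.15 and 3.77 CPM in control rats, with 2.01 ± 0.36 the largest log2 fold change of the 50 genes. Melk, a kinase of mitotic cells, had 4.71, 3.32, 3.78 and 5.79 CPM in aldosterone rats, against 0.510, 0.900, 1.37 and 2.45 CPM in control rats (1.88 ± 0.37). Its coefficient of variation among controls was the largest of the members.

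Not every mitotic gene differed as much. Foxm1, the transcription factor of G2 and M genes, had 10.4, 6.19, 8.30 and 11.6 CPM in aldosterone rats, against 4.73, 5.23, 5.89 and 5.91 CPM in control rats (0.74 ± 0.20). Birc5, the survivin subunit of the chromosomal passenger complex, had 5.56, 4.05, 4.33 and 6.98 CPM in aldosterone rats, against 2.88, 2.98, 3.11 and 3.50 CPM in control rats (0.74 ± 0.21). Plk1, a kinase of centrosomes and kinetochores, had 6.31, 3.72, 4.49 and 10.1 CPM in aldosterone rats, against 0.801, 2.77, 2.68 and 3.61 CPM in control rats (1.35 ± 0.42). All 3 kept the groups apart, but Plk1 and Birc5 were not called by DESeq2. The smallest log2 fold change of the 27 was that of Aurka, the spindle pole kinase, at 0.58 ± 0.23, and its groups overlapped. The other 15 mitotic genes had log2 fold changes of 0.90 to 1.96, among them the cyclins Ccnb1 and Ccna2, the kinesins Kif11, Kif20a and Kif2c, and the centromere proteins Cenpa, Cenpe and Cenpf.

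S-phase genes had a smaller median difference and varied less between rats, with a median coefficient of variation of 16.7% in aldosterone rats and 16.9% in control rats. Rrm1, the large subunit of ribonucleotide reductase, had 92.1, 86.8, 89.0 and 83.2 CPM in aldosterone rats, against 65.5, 59.7, 65.6 and 66.5 CPM in control rats, and its log2 fold change of 0.45 ± 0.06 had the smallest p of the S-phase set (0.000103). Tyms, thymidylate synthase, had 65.5, 55.0, 67.8 and 68.6 CPM in aldosterone rats, against 48.1, 39.3, 41.2 and 48.4 CPM in control rats (0.53 ± 0.10). The aldosterone rats were above the controls for both, by a margin under 1.5-fold on average. Among the helicase subunits, Mcm5 had 39.4, 19.5, 22.6 and 30.4 CPM in aldosterone rats, against 9.28, 12.7, 8.56 and 17.8 CPM in control rats (1.21 ± 0.30), Mcm2 had 55.2, 38.7, 49.6 and 52.8 CPM in aldosterone rats, against 33.3, 27.9, 29.3 and 37.0 CPM in control rats (0.62 ± 0.13), and Mcm7 had 49.5, 44.0, 47.9 and 44.5 CPM in aldosterone rats, against 37.8, 39.0, 31.6 and 37.0 CPM in control rats (0.36 ± 0.08). Rrm2, the small reductase subunit that is made mainly in S phase, had 28.7, 25.7, 23.4 and 41.7 CPM in aldosterone rats, against 14.2, 15.6, 9.26 and 14.2 CPM in control rats (1.17 ± 0.23). Pcna, the sliding clamp of DNA polymerases, had the smallest log2 fold change of all 50 genes, 0.23 ± 0.10, with 116, 97.4, 96.8 and 108 CPM in aldosterone rats, against 78.1, 97.6, 84.2 and 96.3 CPM in control rats. Its groups overlapped. Mcm3, Mcm4 and Mcm6 had log2 fold changes of 0.74 to 1.14.

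The median of the G1/S and licensing genes lay between those of the mitotic and the S-phase sets. Tcf19, a G1/S gene, had 28.2, 24.3, 27.5 and 29.6 CPM in aldosterone rats, against 16.1, 18.4, 18.9 and 17.2 CPM in control rats (0.63 ± 0.09), and Tk1, cytosolic thymidine kinase, had 32.6, 22.8, 28.6 and 34.8 CPM in aldosterone rats, against 16.5, 15.9, 15.8 and 20.7 CPM in control rats (0.78 ± 0.14). E2f1, an activating E2F factor, had 19.6, 8.96, 13.5 and 14.4 CPM in aldosterone rats, against 3.53, 7.20, 4.48 and 8.36 CPM in control rats (1.27 ± 0.33). Ccne1, cyclin E1, had 4.18, 4.20, 4.29 and 5.39 CPM in aldosterone rats, against 0.655, 2.73, 1.20 and 2.30 CPM in control rats (1.38 ± 0.41). In each of these 4 genes all aldosterone rats exceeded all controls. Ccnd1, cyclin D1, which links growth signals to the cycle and is also made in resting epithelium, had 259, 239, 330.3 and 221 CPM in aldosterone rats, against 154, 118, 174 and 184 CPM in control rats (0.74 ± 0.14). Uhrf1, which carries DNA methylation through replication, had the largest log2 fold change of this set, 1.98 ± 0.37. The licensing factors Cdc6 and Cdt1 had 1.38 ± 0.32 and 1.34 ± 0.28, Ccne2 had 1.43 ± 0.29, and Gins2, part of the replicative helicase, had 0.72 ± 0.21.

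The 3 remaining genes serve chromatin and microtubules. H2az1, the histone variant H2A.Z, had 169, 160.3, 171 and 168 CPM in aldosterone rats, against 133, 145, 136 and 130.2 CPM in control rats (0.30 ± 0.06). Stmn1, stathmin, which destabilises microtubules, had 91.6, 78.4, 85.4 and 116 CPM in aldosterone rats, against 33.9, 56.6, 58.3 and 59.2 CPM in control rats (0.84 ± 0.16). The groups did not overlap for either gene. Hmgb2, a chromatin protein, overlapped between groups, and its 4 aldosterone rats spread from 15.5 to 57.9 CPM.

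**Figure D2:**
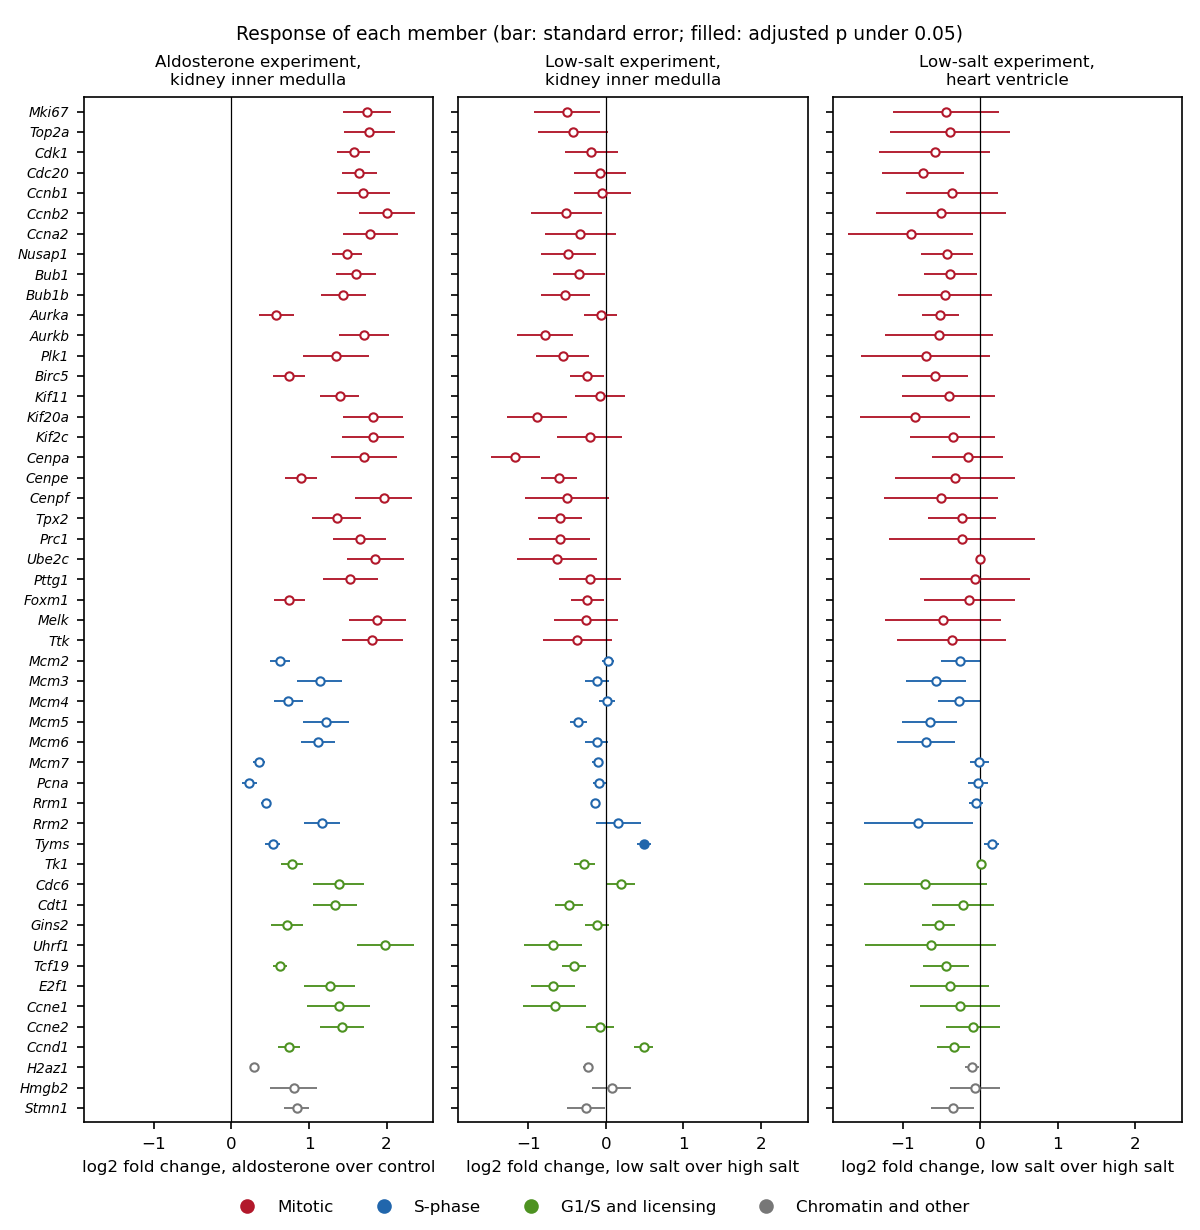
Log2 fold change of each of the 50 genes with its standard error in the aldosterone, kidney low-salt and heart low-salt comparisons, coloured by role; filled symbols have an adjusted p under 0.05, and no bar is drawn where the log2 fold change is under 0.01 in size. All 50 points are above 0 under aldosterone, and Tyms in the low-salt kidney is the single filled point.

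The mitotic genes moved between rats as a block. Within groups, the median correlation between pairs of mitotic genes over the 8 libraries was 0.88, and 100% of pairs were positive, against 0.48 for S-phase genes; these are descriptions over libraries that share their RNA preparation and depth. The mean mitotic level was 1.64, 1.14, 1.25 and 2.10 log2 units above the control mean in aldosterone rats 1 to 4, and -0.81, 0.15, 0.09 and 0.57 in control rats 1 to 4. For the S-phase genes the values were 0.97, 0.48, 0.69 and 0.87 in aldosterone rats and -0.05, -0.03, -0.22 and 0.29 in controls. No aldosterone rat reached down to a control on either scale. The median coefficient of variation of mitotic genes was 32.5% in aldosterone rats and 40.7% in control rats, against 14.7% and 15.7% for all genes tested. In batch 1 alone the log2 differences of the 50 genes were 0.24 to 2.42, with a mitotic median of 1.84 and an S-phase median of 0.73. In batch 2 alone they were 0.18 to 1.93, with medians of 1.43 and 0.62. The difference between the batches passed for 0 of 17671 genes with edgeR. Its unadjusted p was under 0.05 for 0 of the 50 members, against 3.4% of all genes.

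Other parts of the machinery were read from lists of non-members. The G1 cyclin and kinase list also holds Cdc25 phosphatases and Myc, and the anaphase-promoting complex list also holds its inhibitor Fbxo5. None of their genes passed over all genes tested under aldosterone, with edgeR. At an unadjusted p under 0.05, 11 kinetochore and checkpoint, 11 replication fork, 6 condensin and cohesin and 4 E2F and Myb genes, 2 G1 cyclins and kinases, 2 p53 targets, 1 brake and 1 anaphase-promoting complex gene were higher, against 6.2% of all genes, and 3 brakes, 1 condensin or cohesin gene and 1 p53 target were lower, against 3.7%. Of 13 kinetochore and checkpoint genes 11 were positive (median log2 fold change 0.87), and DESeq2 called 8 higher, against 1.69% of all genes. The largest was that of Spc25, a subunit of the Ndc80 complex, at 2.15 ± 0.40, chosen after its value was seen. Of 20 replication fork genes 19 were positive, with a median of 0.30, and DESeq2 called 5 higher, against the same 1.69%. Of 11 condensin and cohesin genes 6 were positive (median 0.32), and DESeq2 called 4 higher, again against 1.69%. Of 12 E2F and Myb regulators 8 were positive (median 0.17), and of 11 genes of the G1 cyclin and kinase list 9 (0.19). Of 14 genes of the anaphase-promoting complex list 10 were positive (0.03). Of the 15 tested CDK inhibitors and brakes 4 were positive and 11 negative with a median of -0.08, and of 9 tested p53 targets 4 were positive with a median near 0 (-0.0028). Within the brakes Cdkn2c, an inhibitor of Cdk4 and Cdk6 that is itself made in cycling cells, stood apart at 1.18 ± 0.18. It was the single brake that DESeq2 called, against 1.69% of all genes higher and 0.419% lower.

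Markers of other cells were not level between the groups. Fibroblast markers were positive in 6 of the 6 tested (median 0.87), with sums of 144 to 419 CPM in aldosterone rats and 103 to 317 CPM in control rats. Thick ascending limb markers were positive in 6 of 6 (median 0.67), with sums of 2290 to 5041 CPM in aldosterone rats and 1065 to 2732 CPM in control rats. Erythroid markers were positive in 7 of 8 (median 0.81; 1219 to 2251 CPM in aldosterone and 966 to 1603 CPM in control rats), with Rhag at or near 0 in every library, urothelium markers in 6 of 6 (0.55; 23.2 to 159 CPM in aldosterone and 31.5 to 68.4 CPM in control rats) and leukocyte markers in 11 of 12 (0.36; 161 to 248 CPM in aldosterone and 118 to 287 CPM in control rats). Globin transcripts took 0.166 to 0.395% of counts in aldosterone rats and 0.107 to 0.193% in control rats. The erythroid sums did not follow globin: aldosterone rat 4 had the highest sum (2251 CPM) and the lowest globin of its group (0.166%). Heart libraries had erythroid sums of 84.5 to 656 CPM at 0.236 to 5.72% globin, so the kidney sums cannot be read as red cell content. Smooth muscle and pericyte markers were positive in 4 of the 5 tested (0.54; 54.2 to 96.3 CPM in aldosterone and 33.9 to 67.8 CPM in control rats). As for all genes, no marker passed with edgeR. DESeq2 called 2 fibroblast, 1 smooth muscle and 1 inner medulla marker higher, against 1.69% of all genes. It called 1 inner medulla marker lower, against 0.419%. Their part in the cell cycle result was not tested.

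The second comparison asks what Na restriction does in the papilla. Here 454 genes passed edgeR's test, and of the cell cycle genes 1 was higher (1.09% of all genes called higher) and 0 were lower (1.37% called lower): Tyms rose, while 43 of the 50 had negative and 7 positive log2 fold changes, against 49.3% of all genes positive. The median was -0.42 for mitotic genes, all 27 of which were negative, -0.09 for S-phase genes, -0.34 for G1/S and licensing genes and -0.0035 for all 18449 genes tested. Leaving out a library moved the mitotic median between -0.78 (without high-salt rat 4) and -0.17 (without low-salt rat 2). Unadjusted p was under 0.05 for 2 higher and 8 lower members, against 8.98% and 10.6% of all genes, and DESeq2 called 2 higher (Tyms and Ccnd1; 4.46% of all genes) and 3 lower (Cenpa, Mcm5 and H2az1; 4.73%).

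Tyms had 46.9, 40.9, 35.6 and 42.7 CPM in low-salt kidneys, against 29.6, 33.7, 27.6 and 27.1 CPM in high-salt kidneys, and its log2 fold change was 0.49 ± 0.09 (adjusted p 0.0373). All low-salt rats lay above all high-salt rats. The difference was 0.47 in batch 1 and 0.51 in batch 2, but Tyms passed neither without the batch term nor in any fit that left out a library (adjusted p up to 0.256 over all alternatives). Ccnd1 had 196, 151, 186 and 163 CPM in low-salt kidneys, against 149, 124, 102 and 123 CPM in high-salt kidneys, again with no overlap (0.49 ± 0.12, adjusted p 0.0736). H2az1 lay below, with 122, 129, 119 and 129.9 CPM in low-salt kidneys, against 143, 158, 142 and 146 CPM in high-salt kidneys (-0.24 ± 0.06, adjusted p 0.0736), as did Mcm5, with 12.0, 9.40, 11.8 and 11.7 CPM in low-salt kidneys, against 14.6, 14.8, 14.5 and 13.5 CPM in high-salt kidneys (-0.35 ± 0.11, adjusted p 0.129). Those 4 genes were the members without overlap between the groups, 2 above and 2 below, against 4.83% and 6.62% of all genes.

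Mitotic genes in the low-salt kidney varied with the rats of the high-salt group. Mki67 had 9.23, 5.45, 5.40 and 8.30 CPM in low-salt kidneys, against 17.0, 17.9, 8.37 and 2.98 CPM in high-salt kidneys (-0.50 ± 0.42). Top2a had 8.62, 5.61, 5.43 and 9.49 CPM in low-salt kidneys, against 18.2, 17.0, 7.72 and 2.92 CPM in high-salt kidneys (-0.42 ± 0.45), and Cdk1 had 5.97, 2.96, 3.63 and 4.96 CPM in low-salt kidneys, against 7.48, 7.65, 4.20 and 2.30 CPM in high-salt kidneys (-0.19 ± 0.34). In all 3 the high-salt rats 1 and 2, of batch 1, were highest and the high-salt rat 4 was lowest, with the low-salt rats between them. Cenpa, the histone that marks centromeres, had the smallest p of the mitotic genes, with 0.823, 0.828, 0.884 and 1.25 CPM in low-salt kidneys, against 2.09, 2.59, 2.69 and 1.13 CPM in high-salt kidneys (-1.17 ± 0.32, adjusted p 0.0932). Next came Cenpe, the kinetochore motor (-0.60 ± 0.24), Kif20a, the kinesin of cytokinesis (-0.88 ± 0.39), and Aurkb, the kinase of the passenger complex (-0.79 ± 0.36). Ccnb2 had -0.51 ± 0.46, Plk1 -0.56 ± 0.35, Birc5 -0.24 ± 0.22, Foxm1 -0.24 ± 0.22, and Cdc20 -0.08 ± 0.33. Ccna2, cyclin A2, had the largest coefficient of variation of the members among high-salt rats (67.1%), with 1.55 ± 0.447 CPM in low-salt kidneys and 2.27 ± 1.52 CPM in high-salt kidneys (-0.33 ± 0.46).

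The other S-phase and G1/S genes did not pass, and their differences varied in size. Mcm2 had 32.3 ± 1.98 CPM in low-salt kidneys and 31.8 ± 2.04 CPM in high-salt kidneys (SD; log2 fold change 0.02 ± 0.08), and Pcna had 74.3 ± 2.56 CPM in low-salt kidneys and 78.8 ± 9.83 CPM in high-salt kidneys (-0.08 ± 0.08). Both differences were smaller than their standard errors or about as large. Among the larger ones, E2f1 had a log2 fold change of -0.68 ± 0.29 (unadjusted p 0.0438), Uhrf1 of -0.68 ± 0.37, Ccne1 of -0.66 ± 0.40, Cdt1 of -0.47 ± 0.18 (unadjusted p 0.0315) and Tcf19 of -0.41 ± 0.15 (unadjusted p 0.0265). Rrm2 had a log2 fold change of 0.16 ± 0.29, Tk1 of -0.28 ± 0.13, Cdc6 of 0.19 ± 0.18 and Stmn1 of -0.26 ± 0.24. Tyms, Ccnd1 and Cdc6 lay furthest from the members' median in the opposite direction.

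The mitotic median was -1.09 in batch 1, where all 27 were negative, and 0.34 in batch 2, where 22 of 27 were positive. Of all 50 members, 30 had opposite signs in the 2 batches. The share of opposite signs over all genes was not worked out. The difference between batches, tested as an interaction chosen after the data were seen, passed for 0 of 18449 genes with edgeR; at an unadjusted p under 0.05 it was positive for 15 of the 50 members, against 3.99% of all genes. The median coefficient of variation of mitotic genes was 24.7% among low-salt rats and 55.5% among high-salt rats, against 12.9% and 14.7% for all genes.

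Among the other lists, Cdkn1c, the CDK inhibitor p57, fell in the low-salt kidney: it had 50.9, 59.1, 37.9 and 48.5 CPM in low-salt kidneys, against 95.2, 92.7, 69.6 and 65.9 CPM in high-salt kidneys (-0.71 ± 0.09, adjusted p 0.0177), with no overlap. Gadd45a, a p53 target induced by stress, rose (0.33 ± 0.06, adjusted p 0.0436; 83.8 ± 17.5 CPM in low-salt kidneys and 66.2 ± 9.44 CPM in high-salt kidneys), although its groups overlapped. Cdkn1c lost its call in 4 of the 8 fits that leave out a library (adjusted p up to 0.0608) and Gadd45a in all 8 (0.0529 to 0.115). Kinetochore and checkpoint genes were negative in 12 of 13 (median -0.29), replication fork genes in 14 of 20 (-0.13) and condensin and cohesin genes in 7 of 11 (-0.10). E2F and Myb regulators were negative in 9 of 12 (-0.13) and genes of the anaphase-promoting complex list in 9 of 14 (-0.05). None of these genes passed. G1 cyclins and kinases were negative in 4 of 11 (0.11), the 15 tested brakes in 6 (0.03) and the 9 p53 targets in 5 (-0.18). Inner medulla markers moved with the diet: Scnn1a, which encodes an epithelial Na channel subunit, rose (log2 2.66, adjusted p 0.0103 with edgeR), and Akr1b1, aldose reductase, and Slc14a2, a urea transporter, fell (log2 -1.74 and -0.81, adjusted p 0.0163 and 0.0207). The endothelial marker Emcn also fell (log2 -0.75, adjusted p 0.0320), with endothelial sums of 495 to 768 CPM in low-salt rats and 709 to 998 CPM in high-salt rats and 6 of 8 markers negative. Leaving out a library ended the call of Emcn in 5 of 8 fits, of Slc14a2 in 3 and of Akr1b1 in 1. Urothelium markers were negative in 5 of 6, with sums of 98.0 to 267 CPM in low-salt rats and 81.0 to 509 CPM in high-salt rats. Proximal tubule markers were positive in 7 of 8 (median 0.67) and erythroid markers in 6 of 8 (0.40), with none called by edgeR. Of 8 inner medulla markers 5 were positive and 3 negative. Globin transcripts took 0.522, 0.251, 0.223 and 0.347% of counts in low-salt rats 1 to 4, against 0.444, 0.381, 0.0598 and 0.0372% in high-salt rats 1 to 4, so that high-salt rats 1 and 2 stood above rats 3 and 4, as their mitotic genes did. The part of these markers in the cell cycle values was not tested.

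**Figure D3:**
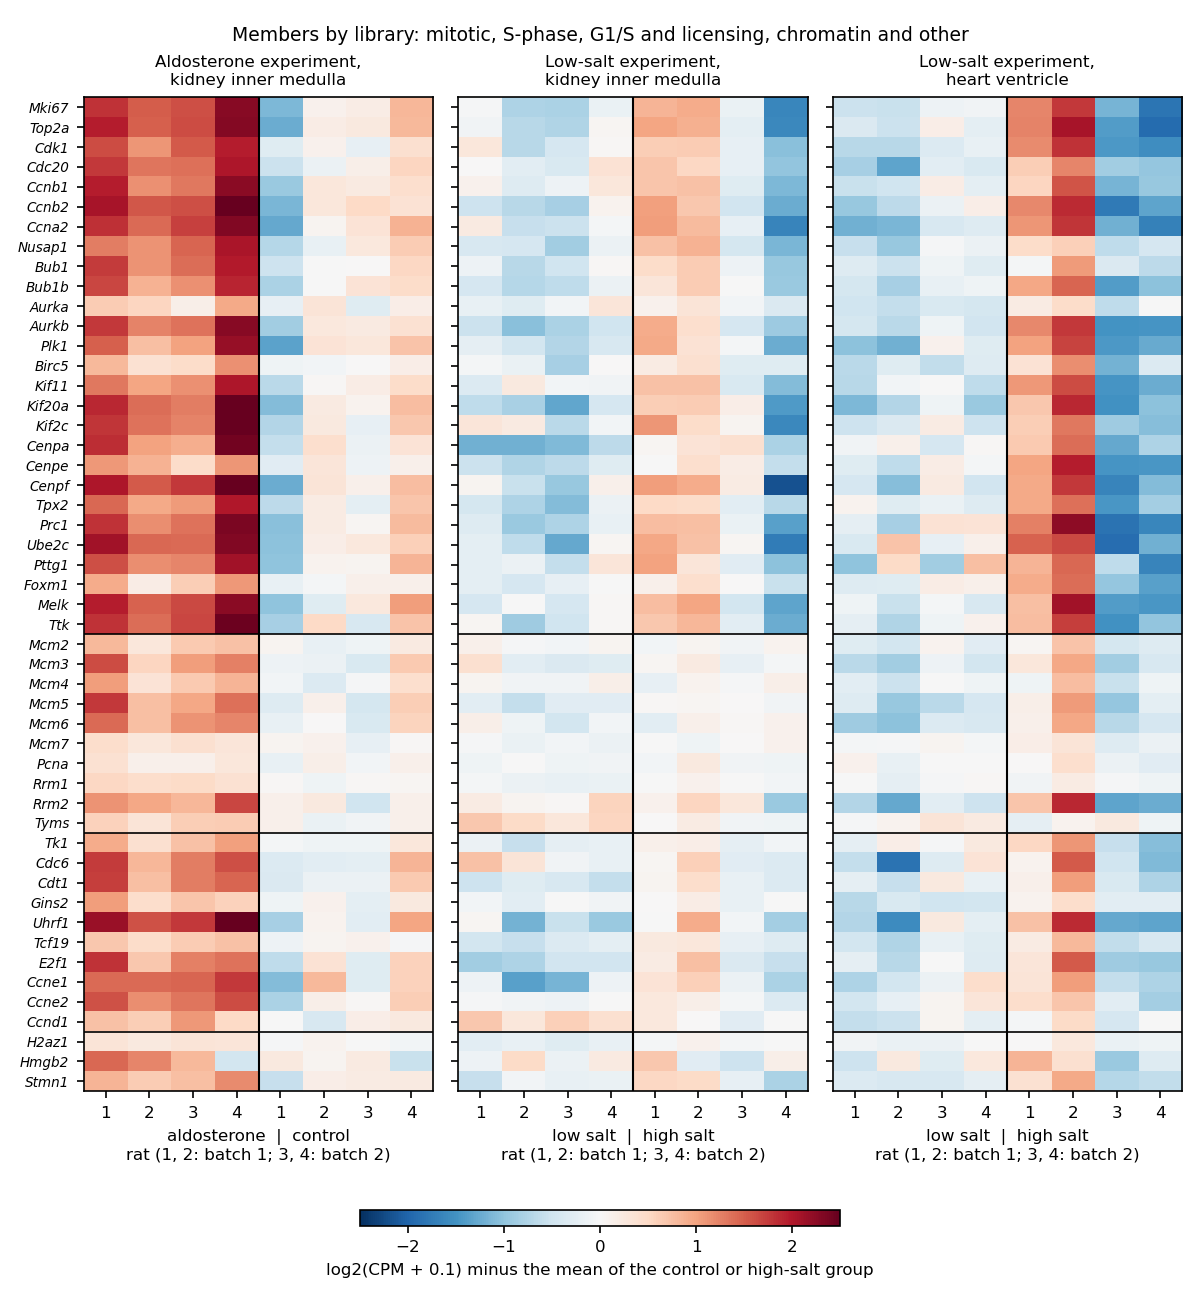
Level of each of the 50 genes in each library, as log2(CPM + 0.1) minus the mean of the control or high-salt group of the same tissue; columns are rats, the treated group is left of its control in each panel, and lines separate the roles. The 4 aldosterone columns are red apart from Hmgb2 in rat 4, and in the heart panel most rows are red in high-salt rats 1 and 2 and blue in high-salt rats 3 and 4.

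The third comparison asks the same of the heart ventricle. No cell cycle gene passed with edgeR (0.0129% of all 15473 genes were called higher and 0.0388% lower), and DESeq2 called none (1.22% of all genes higher and 0.737% lower), with no adjusted value for 9 members of low counts. Gins2 was the single member with an unadjusted p under 0.05, in the lower direction, against 4.92% of all genes lower and 5.68% higher; with 1.35, 1.70, 1.55 and 1.61 CPM in low-salt hearts, against 2.37, 3.06, 1.86 and 1.85 CPM in high-salt hearts (-0.53 ± 0.21, adjusted p 0.433) it was also the single one whose groups did not overlap, against 2.04%. Of the 50 genes 47 were negative, against 48.2% of all genes positive, and the median log2 fold change was -0.42 for mitotic, -0.26 for S-phase and -0.37 for G1/S and licensing genes and -0.0081 for all genes.

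The differences ran in opposite directions in the 2 batches. Mki67 had 5.16, 5.12, 6.95 and 7.08 CPM in low-salt hearts, against 17.8, 26.0, 3.35 and 2.06 CPM in high-salt hearts. Cdk1 had 1.63, 1.62, 2.12 and 2.36 CPM in low-salt hearts, against 6.29, 9.70, 0.929 and 0.854 CPM in high-salt hearts, and Top2a had 4.33, 3.80, 6.26 and 4.69 CPM in low-salt hearts, against 13.4, 23.7, 2.06 and 1.39 CPM in high-salt hearts. In each, the high-salt rats 1 and 2 of batch 1 were the highest of the 8, the high-salt rats 3 and 4 of batch 2 the lowest, and the 4 low-salt rats lay between. The mitotic median was -1.80 in batch 1, with all 27 genes negative, and 1.13 in batch 2, with 26 of 27 positive. S-phase genes had medians of -0.76 and 0.24, and G1/S and licensing genes of -1.06 and 0.76. Of the 50 genes 47 had opposite signs in the 2 batches, and the share over all genes was not worked out.

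**Figure D4:**
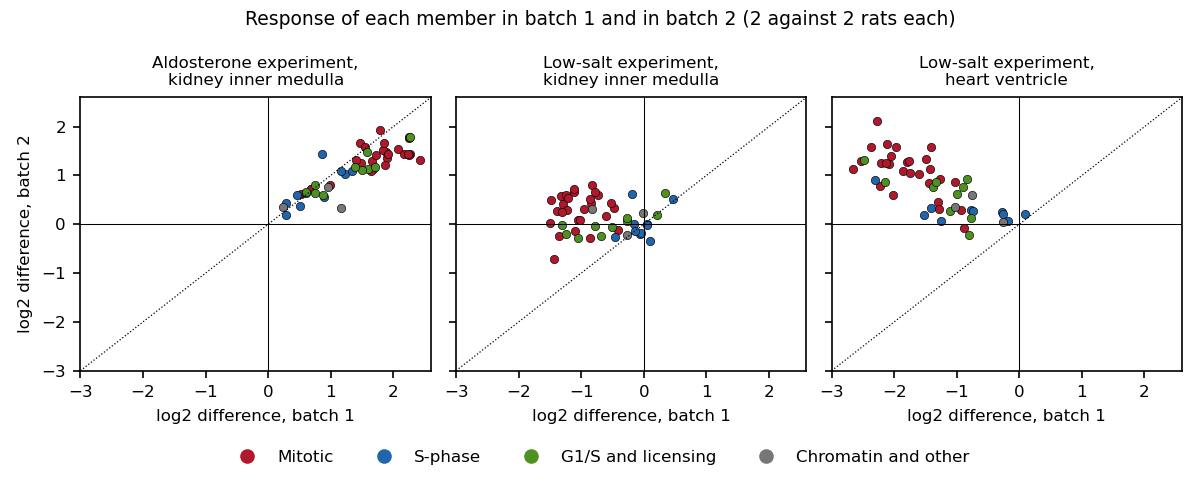
Log2 difference of each of the 50 genes in batch 1 (horizontal axis) and batch 2 (vertical axis), from mean log2 CPM of 2 against 2 rats, in the 3 comparisons; the dotted line marks equal differences. All points of the aldosterone comparison are above 0 on both axes, and in the heart 47 of 50 have opposite signs.

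The difference between the batches was tested as an interaction, added after the data were seen, as the log2 fold change in batch 2 minus that in batch 1. With edgeR it passed for 24 of 15473 genes (0.155%), and 5 of them were cell cycle genes. These were Mki67 (3.46 ± 0.36 SE, adjusted p 0.0380), Cdk1 (3.62 ± 0.39, 0.0385), Prc1, which bundles microtubules of the central spindle (4.54 ± 0.52, 0.0440), Top2a (3.85 ± 0.46, 0.0440) and Ccnb2 (4.15 ± 0.50, 0.0440). All 50 members were positive with a median of 2.36, and 44 had an unadjusted p under 0.05, against 7.7% of all genes in that direction. DESeq2 called 31 of the 50, against 2.46% of all genes. Leaving out a library gave 5 called members without high-salt rat 1 and 0 in each of the other 7 fits; Mki67, Cdk1, Prc1 and Top2a were among those 5, and Ccnb2 passed in none of the 8 (adjusted p 0.0643 to 0.164). The smallest difference of the members was that of Tyms (0.11 ± 0.20).

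The other genes are given by role. Among mitotic genes Cdc20 had 2.30, 1.62, 3.46 and 3.18 CPM in low-salt hearts, against 6.52, 9.86, 2.26 and 2.10 CPM in high-salt hearts (-0.74 ± 0.53), Nusap1 had 4.65, 3.61, 6.86 and 6.36 CPM in low-salt hearts, against 9.70, 10.7, 4.48 and 5.20 CPM in high-salt hearts (-0.42 ± 0.34), and Aurka had 2.07, 1.92, 2.27 and 2.16 CPM in low-salt hearts, against 3.41, 4.08, 1.86 and 2.96 CPM in high-salt hearts (-0.51 ± 0.24). Aurka had the smallest p of the mitotic genes, 0.0623, and a batch difference of 0.79 ± 0.40. Ccnb2 had a log2 fold change of -0.51 ± 0.84, Plk1 of -0.70 ± 0.83, Birc5 of -0.59 ± 0.43, Foxm1 of -0.14 ± 0.58 and Melk of -0.48 ± 0.75. Ube2c, the ubiquitin-conjugating enzyme of the anaphase-promoting complex, had 1.15, 2.58, 1.31 and 1.67 CPM in low-salt hearts, against 4.41, 5.01, 0.332 and 0.605 CPM in high-salt hearts; its log2 fold change was 0.0008 with the batch term and -0.624 without it.

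Among replication genes, Mcm6 had 3.38, 3.10, 5.04 and 4.82 CPM in low-salt hearts, against 6.96, 12.6, 3.92 and 4.77 CPM in high-salt hearts (-0.71 ± 0.37), Mcm5 4.30 ± 0.826 CPM in low-salt hearts and 7.34 ± 4.46 CPM in high-salt hearts (-0.65 ± 0.35) and Mcm2 10.1 ± 1.72 CPM in low-salt hearts and 12.4 ± 4.94 CPM in high-salt hearts (-0.26 ± 0.25). Rrm2 had 2.74, 1.84, 3.85 and 3.21 CPM in low-salt hearts, against 7.52, 17.3, 1.79 and 1.89 CPM in high-salt hearts (-0.80 ± 0.70). Rrm2 varied like the mitotic genes, with high-salt rats 1 and 2 highest. In contrast, Rrm1 had 50.9, 43.8, 50.2 and 52.4 CPM in low-salt hearts, against 48.4, 58.8, 50.5 and 47.9 CPM in high-salt hearts (-0.06 ± 0.09), Pcna 31.8 ± 2.62 CPM in low-salt hearts and 32.8 ± 7.42 CPM in high-salt hearts (-0.03 ± 0.13) and Tyms 55.7 ± 6.14 CPM in low-salt hearts and 50.2 ± 7.20 CPM in high-salt hearts (0.15 ± 0.10). Rrm1 had the smallest coefficient of variation of the members among high-salt rats. E2f1 had a log2 fold change of -0.40 ± 0.51, Ccne1 of -0.26 ± 0.51, Ccnd1 of -0.34 ± 0.21, H2az1 of -0.10 ± 0.09 and Stmn1 of -0.36 ± 0.28, and Tk1 of 0.0032 with 9.33 ± 1.33 CPM in low-salt hearts and 10.7 ± 7.02 CPM in high-salt hearts.

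Mitotic genes were more variable among high-salt than among low-salt hearts. The median coefficient of variation of mitotic genes was 26.0% among low-salt hearts and 94.2% among high-salt hearts, against 12.0% and 13.1% for all genes tested. For S-phase genes it was 16.4% among low-salt and 41.2% among high-salt hearts. The mean mitotic level of low-salt rats 1 to 4 was -0.54, -0.55, -0.10 and -0.19 log2 units from the high-salt mean, and that of high-salt rats 1 to 4 was 0.88, 1.58, -1.29 and -1.17. Kidney high-salt rats 1 and 2 also had the higher values of their group (0.68 and 0.63, against -0.15 and -1.16 for rats 3 and 4). Pairs of mitotic genes correlated within groups with a median of 0.93 in the heart and 0.89 in the low-salt kidney experiment, and pairs of S-phase genes with 0.85 and 0.23.

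**Figure D5:**
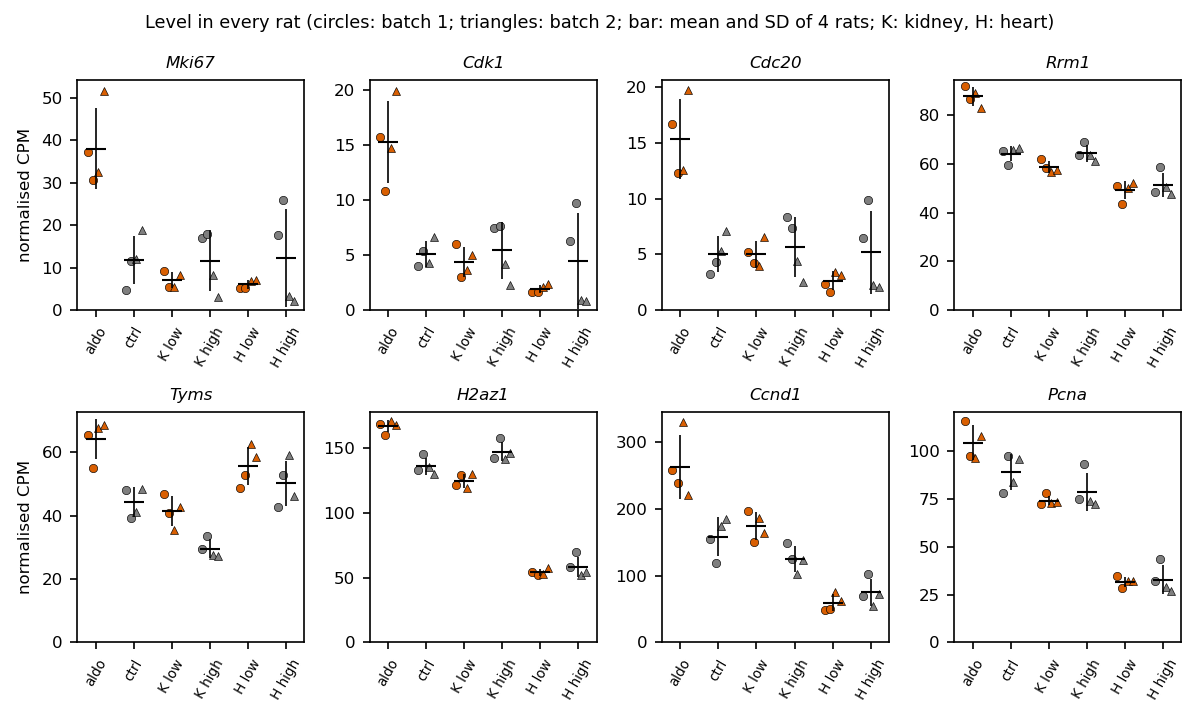
Normalised CPM of 8 genes in all 24 libraries; each point is a rat (circles batch 1, triangles batch 2), bars give mean and SD of 4 rats, aldo and ctrl are the aldosterone and control groups, K and H are kidney and heart, and low and high the diets. Mki67, Cdk1 and Cdc20 have their highest mean in the aldosterone group, and for Mki67 and Cdk1 the heart high-salt rats of batch 1 and of batch 2 lie on opposite sides of the low-salt rats.

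Other cell cycle lists in the heart held no gene that passed with edgeR. At an unadjusted p under 0.05, 2 E2F and Myb regulators, 2 p53 targets and 1 replication fork gene were lower, against 4.92% of all genes. So were 1 condensin or cohesin gene, 1 gene of the G1 cyclin and kinase list and 1 anaphase-promoting complex gene. In the other direction 4 of the 14 tested brakes, 1 p53 target and 1 anaphase-promoting complex gene were higher, against 5.68%. DESeq2 called 1 p53 target lower, against 0.737% of all genes. Kinetochore and checkpoint genes were negative in 13 of 13 (median -0.44), replication fork genes in 13 of the 19 tested (-0.19), condensin and cohesin genes in 8 of 11 (-0.07), the 11 tested E2F and Myb regulators in 6 (-0.05), G1 cyclins and kinases in 5 of 11 (0.01), the 14 tested brakes in 7 (-0.0012), anaphase-promoting complex genes in 6 of 14 (0.0024) and the 9 tested p53 targets in 6 (-0.03). Fibroblast markers were negative in 7 of 7 (median -0.32), with sums of 1232 to 2607 CPM in low-salt and 2129 to 2763 CPM in high-salt hearts. Their sums also ran in opposite directions in the batches: 1446 and 1232 CPM in low-salt hearts, against 2763 and 2310 CPM in high-salt hearts of batch 1, and 2607 and 2470 CPM in low-salt hearts, against 2129 and 2214 CPM in high-salt hearts of batch 2. Leukocyte markers were negative in 11 of 12 (-0.20), with sums of 123 to 163 CPM in low-salt and 135 to 187 CPM in high-salt hearts. Proximal tubule markers were positive in 8 of 8 (0.71) and erythroid markers in 7 of 9 (0.79), with none called by edgeR. Globin transcripts took 1.78, 5.72, 2.11 and 4.58% of counts in low-salt hearts 1 to 4, against 3.25, 3.70, 0.969 and 0.236% in high-salt hearts 1 to 4, so that the high-salt hearts again split by batch. High-salt heart 2, the library with the highest mitotic level, also carried thick ascending limb markers at 109 CPM, against 1.46 to 12.8 CPM in the other 7. Their part in the cell cycle values was not tested. Without that library the mitotic median was -0.04 and the S-phase median 0.01; over the 8 fits that leave out a library they ran from -0.91 (without high-salt heart 3) to 0.05 (without low-salt heart 2) and from -0.44 (without high-salt heart 3) to 0.01.

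The low-salt responses of kidney and heart were compared directly. The difference, kidney minus heart, passed for 161 of 19408 genes (0.83%) and for none of the 50 members with edgeR; 28 were positive and 22 negative, 2 had an unadjusted p under 0.05 in the positive direction (7.07% of all genes), and DESeq2 called 1 (1.74%). The smallest p was that of Ccnd1 (0.84 ± 0.27, adjusted p 0.168), with log2 fold changes of 0.49 in the low-salt kidney and -0.34 in the low-salt heart. Tyms followed with 0.35 ± 0.14, then Cenpa with -0.995 ± 0.58 and Gins2 with 0.43 ± 0.25.

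The log2 fold change under aldosterone was above that on low salt in the same tissue for all 50 genes, with a median difference of 1.71 on the log2 scale. With edgeR the difference passed for 10 of 18938 genes, 5 of them positive (0.0264%), and 2 of those 5 were members. Rrm1 differed by 0.57 ± 0.08 (adjusted p 0.0292), with log2 fold changes of 0.45 under aldosterone and -0.14 on low salt in the separate fits. H2az1 differed by 0.51 ± 0.08 (adjusted p 0.0327), with 0.30 under aldosterone and -0.24 on low salt. Tcf19 (1.02, adjusted p 0.0590) and Tk1 (1.04, 0.0648) followed, and Tyms, which was higher in both experiments, had the smallest difference (0.02 ± 0.13). At an unadjusted p under 0.05 46 of the 50 were positive, against 6.75% of all genes, and DESeq2 called 40, against 1.96%. No member passed when the batch term was left out or replaced by the replicate block, and leaving out a library gave 0 to 13 members, 13 without high-salt kidney 4. Since the 2 experiments differ in the sex their RNA shows, in the count table and in the treatment, these cannot be told apart in this difference.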

How the data were processed

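Poly(A) RNA of 24 pieces of rat tissue was sequenced as stranded libraries, 6 groups of 4. Per the submitters' processing notes, Salmon, Trimmomatic, MultiQC and bcl2fastq 2.19 were used; their settings, genome build and annotation are not stated in those notes or the labels. The deposited tables hold the authors' estimated counts per gene, 1 table for each of the 3 experiments and tissues, and these expected counts were rounded to whole numbers. All 36856 rows carry symbols that matched RefSeq. Depth was 24299000 to 38318000 estimated counts per library.

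Each comparison was fitted across all genes with edgeR 4.0.16 in R 4.3.3: filterByExpr with a minimum count of 10, TMM scaling, batch and group as terms, the quasi-likelihood F test and Benjamini-Hochberg adjustment over all genes, with calls at an adjusted p under 0.05. Differences between responses were interaction terms fitted on the joined tables. A ± after a log2 fold change is an SE worked back from the test, as the size of the log2 fold change over the square root of F. It is unreliable near 0, and none is given where the log2 fold change is under 0.01 in size. A ± after a mean CPM is its SD, with n = 4 rats per group throughout. A score per library is the mean log2 CPM of a role with a prior count of 2. The log2 differences per batch are means of 2 against 2 libraries.

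The members, roles and other lists were chosen with earlier results of these data known. Named genes are a set of 19 members given in each comparison, members past the threshold, the 4 of smallest p among mitotic and among S-phase and G1/S genes, the 3 furthest against the members' median, those of largest or smallest variation, and the 4 of smallest p in each interaction; others are named as examples of a role. In the heart, deviations of same-numbered libraries from their group means correlated (0.22, 0.30, 0.29 and 0.24), but batch was not removed and these libraries share a batch. The best match of low-salt hearts 1 to 4 was high-salt heart 2, 2, 4 and 3, so pairing cannot be told apart from batch. The replicate block called 0 genes there. No 2 libraries agreed within sampling noise. Since the labels do not name separate animals, p-values measure the spread between these samples. Alternatives were DESeq2 1.42.0, its size factors, upper-quartile scaling, no filter, a filter at 1 CPM, a prior count of 0.5, no batch term, a replicate block, each batch alone and leaving out each library. All 50 genes passed the filter, the smallest count being 3 (Cdc6 in a heart).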

Additional observations from a re-analysis of the deposited data

Results flagged for a closer look

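Over the named genes and the mitotic, S-phase and G1/S and licensing scores, 172 groups of 4 libraries were tested for outliers. In 8 of them, all gene values, 1 library stood apart from the other 3. The gap's share of the group's range exceeded Dixon's critical value there, and chance gives about 1 in 20. Ccne1 had 5.388 CPM in aldosterone rat 4, against 4.18 to 4.29 in the others. Tk1 had 20.75 CPM in control rat 4 (others 15.8 to 16.5), Stmn1 33.88 CPM in control rat 1 (others 56.6 to 59.2) and Rrm1 59.71 CPM in control rat 2 (others 65.5 to 66.5). In the low-salt kidneys, Mcm5 had 9.398 CPM (others 11.7 to 12.0) and Pcna 78.05 CPM (others 72.5 to 73.3) in rat 2, and Cenpa had 1.247 CPM in rat 4 (others 0.823 to 0.884). In the high-salt kidneys Pcna had 93.44 CPM in rat 2 (others 72.5 to 75.2).

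The low-salt response of 5 members in the heart differed between batches by edgeR's interaction test. The log2 fold change in batch 2 minus that in batch 1 was 3.4559 for Mki67, 3.6194 for Cdk1, 4.5383 for Prc1, 3.8528 for Top2a and 4.1519 for Ccnb2. The log2 fold change under aldosterone minus that on low salt in the kidney was 0.56507 for Rrm1 and 0.51267 for H2az1, also past edgeR's interaction test. The cause of either difference was not tested.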

How the results depend on the processing

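Over the alternatives that keep all libraries or 1 batch, 712 gene values kept direction and side of the threshold, 32 passed it newly, 26 no longer passed and 40 changed sign. Under aldosterone, DESeq2 called 44 members of 373 genes, no filter 3 of 4 and batch 1 alone 1 gene; leaving out a library gave 0 to 2 genes. In the low-salt kidney, DESeq2 called 2 members higher and 3 lower of 1695 genes. There 0 members were higher with no batch term (165 genes), the replicate block (52), batch 1 alone (0) and batch 2 alone (240), and leaving out a library gave 2 to 423 genes with 0 to 0 members higher and 0 to 1 lower. Values by batch in this section are edgeR fits of 1 batch alone, and differ from the differences of mean log2 CPM given in the Results. The kidney mitotic median was -1.0905 in batch 1 and 0.2785 in batch 2, and its excess over the S-phase median -1.0573 and 0.3508. In the low-salt heart, genes called were 303 with DESeq2, 85 with no filter, 1 with no batch term, 0 with the replicate block, 1 in batch 1, 1 in batch 2 and 1 to 8 leaving out a library. Heart medians were -1.9259 (mitotic) and -0.8099 (S-phase) in batch 1 and 1.3203 and 0.2303 in batch 2, an excess of 1.09. Kidney minus heart, DESeq2 called 1 member of 821 genes, no batch term 14 genes, the replicate block 16 and leaving out a library 11 to 194. Aldosterone minus low salt, DESeq2 called 40 members of 657 genes, no batch term 0 of 0, the replicate block 0 of 0, and leaving out a library 0 to 13 members and 0 to 67 genes. The heart batch difference had 31 members of 380 genes with DESeq2, 30 of 335 with no filter, 8 members at 1 CPM, and 0 to 5 members and 0 to 8 genes leaving out a library. The causes were not tested.

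In the edgeR fit of kidney batch 1 alone, Rrm2 changed sign (-0.1978). In that of kidney batch 2 the values that changed sign were Mki67 (0.2785), Top2a (0.4945), Cdk1 (0.4085), Cdc20 (0.6032), Ccnb2 (0.5393), Foxm1 (0.1475), Pcna (0.0041), Stmn1 (0.2983), Aurkb (0.0103) and Ccna2 (0.5257). In heart batch 2 they were Mki67 (1.3667), Top2a (1.6616), Cdk1 (1.3203), Cdc20 (0.6042), Ccnb2 (1.6792), Plk1 (1.446), Birc5 (0.2679), Foxm1 (1.3947), Ccnd1 (0.1119), Ccne1 (0.9406), E2f1 (0.7948), Mcm2 (0.2985), Mcm5 (0.0173), Pcna (0.2032), Rrm2 (0.9372), H2az1 (0.0527), Stmn1 (0.3589), Nusap1 (0.4477), Mcm6 (0.1807), Melk (1.4868) and Rrm1 (0.058). Heart Ube2c was -0.0156 at 1 CPM, -1.331 in batch 1, -0.624 with no batch term, -0.0124 with the replicate block and -0.004 with upper-quartile scaling, and heart Tk1 -0.8663 in batch 1, -0.2002 with no batch term and -0.0023 with upper-quartile scaling. Leaving out a library, heart values ranged from -1.2192 to 0.2195 (Ccnb2), -0.6054 to 0.1155 (Ccne1), -0.7159 to 0.1361 (E2f1), -0.6103 to 0.2998 (Foxm1), -0.9619 to 0.2211 (Melk), -1.0393 to 0.1163 (Mki67), -0.1048 to 0.1079 (Pcna), -0.0993 to 0.0239 (Rrm1), -0.2942 to 0.2971 (Tk1), -1.0433 to 0.2702 (Top2a) and -0.4903 to 0.5876 (Ube2c). Kidney values ranged from -0.7121 to 0.0155 (Ccna2), -0.36 to 0.1456 (Cdc20), -0.4558 to 0.115 (Cdk1), -0.0124 to 0.069 (Mcm2), -0.1275 to 0.0095 (Pcna) and -0.1038 to 0.338 (Rrm2).

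Deviations of same-numbered rats correlated unevenly in the aldosterone (0.08, 0.19, -0.05 and 0.32) and kidney low-salt libraries (-0.04, 0.23, -0.05 and -0.02), with batch not removed. The best match of aldosterone rats 1 to 4 was control rat 2, 2, 1 and 4. That of low-salt kidneys 1 to 4 was high-salt kidney 4, 2, 2 and 3. In these libraries, as in the heart, the block rests on a number alone, and that number also follows batch. Low counts limit the rarest mitotic genes in the heart.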

Other observations

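The other 19 genes whose low-salt response in the heart differed between batches, by edgeR's interaction test chosen after the data were seen, included 2 genes known from mitosis outside the list, named, like those that follow, after their values were seen: Nek2, a centrosomal kinase (3.72 ± 0.46 SE for batch 2 minus batch 1 on the log2 scale, adjusted p 0.0449), and Depdc1 (5.72 ± 0.68, adjusted p 0.044). Others were Col3a1, a fibrillar collagen (1.44 ± 0.17), Nid2, of the basement membrane (1.81 ± 0.19), Loxl2, which cross-links collagen (1.19 ± 0.11), and Aspn, a small proteoglycan (1.35 ± 0.17). Apln, a peptide ligand made by endothelial tip cells (1.29 ± 0.14), Nes, nestin (1.35 ± 0.14), Prnd (3.83 ± 0.38) and Nrep (1.62 ± 0.10) were among the rest. Of the 24 genes, Pnpla2, the triglyceride lipase (-0.79 ± 0.09), and Fitm2, a lipid droplet protein (-1.07 ± 0.13), were the 2 of opposite sign. Leaving out a library lowered the 24 calls to 0 to 8.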
